A study of Saccharomyces cerevisiae with 12 samples.

Results

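Transcripts of the yeast Saccharomyces cerevisiae strain IMZ305 were compared with those of the reference strain CEN.PK113-7D in aerated chemostats. The comparison uses the 6 arrays titled as aerobic glucose-limited chemostats of these strains, 3 per strain, of 12 arrays in the series. The spread behind each p-value and call was estimated over all 12 arrays, and a fit to the 6 aerobic arrays alone called 344 probe sets higher and 488 lower in place of 565 and 770. All 9275 yeast probe sets of the 9335 on the array were tested. CEN.PK113-7D is a prototrophic laboratory strain (MATa MAL2-8C SUC2) with its own acetaldehyde dehydrogenases and acetyl-CoA synthetases. IMZ305 is also MATa MAL2-8C SUC2, carries the auxotrophic alleles ura3-52, leu2-3,112 and his3-Δ1 and derives from CEN.PK102-12A. In it, ALD2 with ALD3 was replaced by LEU2, ALD4 by HIS3, ALD5 by KanMX4, ALD6 by hphNT1 and ACS2 by natNT2, each cassette between loxP sites, and ACS1 was replaced by AmdS. Its plasmid pUDE151 carries URA3 and the Escherichia coli gene eutE, whose product is an acetylating acetaldehyde dehydrogenase. Both strains grew at a dilution rate of 0.1 per h on 7.5 g/L glucose at 30 °C and pH 5.0, with 500 mL of air per min and stirring at 800 rpm.

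In baker's yeast the cytosol normally makes acetyl-CoA from pyruvate by way of acetaldehyde and acetate: pyruvate decarboxylase gives acetaldehyde, the Ald enzymes oxidise it to acetate, and the Acs enzymes join acetate to coenzyme A at the cost of ATP. EutE forms acetyl-CoA from acetaldehyde and coenzyme A directly and spends no ATP. Cytosolic acetyl-CoA is the starting material of sterols and fatty acids and the donor for protein acetylation, and sugar-limited aerobic cultures of yeast respire most of their carbon. IMZ305 is 1 strain, and its background, marker cassettes, plasmid and route to acetyl-CoA differ from the reference together, so their parts cannot be told apart. The labels number the chemostats 1 to 3 without saying whether they were started separately. The p-values therefore measure the spread between these samples, which may be technical. Each array reads a whole culture, so a change in a fraction of the cells and a smaller change in all of them cannot be told apart.

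The values deposited are signals per probe set on a linear scale, already scaled to a common level on every array. Of the probe sets, 74.4% to 83.5% lay above the highest non-target control of their array, which read 3.2 to 7.5. Log2 signals of the probe sets, which are no independent replicates, correlated at 0.966 to 0.974 between reference arrays and 0.979 to 0.987 between IMZ305 arrays. The ratio of 3' to 5' signal of ACT1, a measure of RNA and labelling quality, was 1.24 to 1.96 in the reference and 1.61 to 1.65 in IMZ305. The hybridization control BioB read 59.9 on reference array 3 and 7.9 to 12.0 on the other 5 arrays, and its part in the results was not tested beyond the fits without that array. Of the probe sets that mark mating type a, 7 of 7 lay above background on all arrays of both strains, with summed signals of 3949 to 5919 in the reference and 2255 to 2319 in IMZ305. Of those that mark mating type alpha, 3 of 4 lay above background on all reference arrays and 2 of 4 on all IMZ305 arrays, with sums of 132.7 to 177.0 and 87.6 to 105.0.

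The 7 deleted genes were read first, since they check the labels. ALD4, the main mitochondrial acetaldehyde dehydrogenase gene, went from 3033.8, 1979.3 and 3683.4 to 1.4, 0.9 and 1.7 (at least 616-fold lower). ALD6, the main cytosolic form, gave 1019.6, 1601.6 and 1207.9 in the reference and 0.1, 0.1 and 0.1 in IMZ305 (at least 275-fold lower), and ALD5, a further mitochondrial form, 274.6, 225.3 and 327.4 in the reference and 1.1, 0.5 and 0.3 in IMZ305 (at least 59.9-fold lower). For each of the 3 genes all IMZ305 arrays lay under the non-target controls and all reference arrays far above them. ACS1, whose product makes acetyl-CoA chiefly when glucose is scarce, read 2737.5, 952 and 2451.6 in the reference and 0.4, 0.5 and 0.3 in IMZ305 (at least 408-fold lower). ACS2, the form also made on plentiful glucose, read 782.3, 647.9 and 863.9 in the reference and 2, 2.1 and 1.4 in IMZ305 (at least 167-fold lower). The stress-induced ALD2 and ALD3 were low even in the reference, where ALD2 read 20.6, 31.5 and 25.9 and ALD3 28.5, 40.3 and 32.1, and were lower by at least 5.63-fold and at least 7.31-fold. Folds given as "at least" set the highest non-target control of an array in place of a signal below it. On reference array 2 ACS1 lay well under its level on the other 2 reference arrays.

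The marker genes did not move alike. URA3, the uracil synthesis gene carried by the plasmid, rose from 91.2, 85.8 and 84.2 to 2725.4, 2666.6 and 2843.1 (31.5-fold, adjusted p = 1.52e-08). The array's separate URA3 control probe set read 78.7, 163.8 and 114.2 in the reference and 2564.7, 3017.7 and 3111.6 in IMZ305. LEU2, which stands at the ALD2-ALD3 locus of IMZ305, fell from 1262.7, 1445.7 and 1205.2 to 360.6, 335.1 and 277.2 (4.04-fold, adjusted p = 9.84e-06), and its groups lay far apart. The other 2 LEU2 probe sets also read lower on all IMZ305 arrays (log2 changes of -1.64 and -1.28) but were not called (adjusted p = 0.0954 and 0.0976). HIS3 read 310.7, 394.2 and 348.9 in the reference and 536.1, 516.2 and 465.9 in IMZ305 (1.45-fold, adjusted p = 0.0462), a call that held in 2 of the 12 fits leaving out 1 array.

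**Figure D1:**
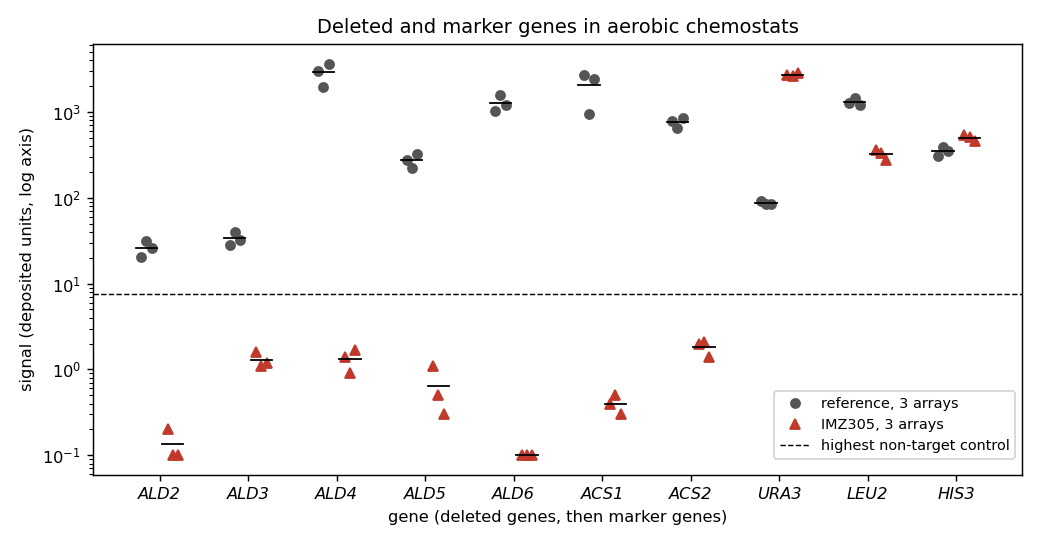
Signal of the 7 deleted genes and 3 marker genes on each of the 3 reference arrays (circles) and 3 IMZ305 arrays (triangles), on a log axis in the deposited units. Short bars are group means and the dashed line is the highest non-target control, 7.5; all deleted genes lie under it in IMZ305, URA3 lies between 2666.6 and 2843.1 and LEU2 between 277.2 and 360.6.

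Across the 9275 probe sets limma called 565 higher (6.09%) and 770 lower (8.3%) in IMZ305 at an adjusted p under 0.05, so 42.3% of the calls were higher. Centring each array on its median gave 591 and 585, or 50.3% higher. Of 5656 genes with a probe set of their own, 409 (7.23%) were called higher and 621 (11.0%) lower. A call is described below as stable where it also held in each of the 12 fits that leave out 1 array, which was so for 178 genes higher (3.15%) and 282 lower (4.99%). The groups did not overlap for 37.3% of genes, and the median log2 change of all genes was -0.035.

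PHO5, the repressible acid phosphatase gene, had the largest fitted rise and lay under the non-target controls on all reference arrays, with 50.7, 56 and 59.2 in IMZ305 (at least 9.21-fold, adjusted p = 5.45e-10). PHO5 also rose in the other engineered strain of the series, as given below. PBI1 rose from 9.5, 7.4 and 13.1 to 103.1, 96.7 and 108.2 (10.5-fold, adjusted p = 1.50e-05). MHF1, whose product belongs to a DNA-binding complex of histone-fold proteins, rose from 94.5, 121.1 and 162.5 to 703.3, 780.9 and 857.5, a log2 change of 2.66 ± 0.26 SE (6.33-fold, adjusted p = 0.000323). All 3 genes had groups without overlap and stable calls, but the rule that picked them required both, so neither adds support. MHF1 lies beside ADH1, the main fermentative alcohol dehydrogenase gene, which itself read 3797.5, 3627.4 and 4273.1 in the reference and 3569.9, 3173.9 and 2999.1 in IMZ305 (adjusted p = 0.141). The uncharacterised genes YJL213W, YPR145C-A and YMR317W rose 7.19-fold, 6.62-fold and at least 10.0-fold. YMR317W was under background in the reference and read 63.5, 56.2 and 60.7 in IMZ305. YDR034C-A, which has 7 probe sets, read 63.7, 63.4 and 6.3 in the reference and 413, 488 and 428.2 in IMZ305 on the brightest (adjusted p = 0.0103), and reference array 3 lay far under the other 2 reference arrays.

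Among the largest falls outside the deleted genes, FDH1, the formate dehydrogenase gene, went from 2303.3, 1610.6 and 1923.7 to 47.8, 44.9 and 42.1 (42.9-fold). A second FDH1 probe set went from 1013.3, 828.3 and 1369 to 17.9, 13.6 and 13.9 (69.8-fold lower), and another lay under background on all 6 arrays. Probe sets of FDH1 may also read its near-identical copy FDH2. CRF1, a corepressor that acts on ribosomal protein genes, fell from 226.8, 183.1 and 223.1 to 15.9, 17.5 and 20.5 (11.8-fold, adjusted p = 0.00122). SPG1, a gene named for survival in stationary phase, fell from 653.5, 446.2 and 477.2 to 43.2, 43.9 and 42 (12.0-fold, adjusted p = 3.26e-05), and SIP18, a gene induced by salt and drying, fell from 447.6, 364.8 and 323.6 to 47.1, 50 and 46.8 (7.83-fold, adjusted p = 2.92e-05). In each case the lowest reference array was several times above the highest IMZ305 array. IZH4, a membrane protein gene linked to zinc and sterol homeostasis, fell from 206.9, 252.8 and 136.3 to 28.8, 33.5 and 33.9 (6.02-fold, adjusted p = 0.00109). YER121W and YMR206W, genes of uncharacterised function, fell 5.91-fold and 5.61-fold. CMG1 fell at least 2.72-fold. PHO2 and SNR66, called lower, and JLP1, called higher and so among the rises, had signals near or under background and are given no fold.

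**Figure D2:**
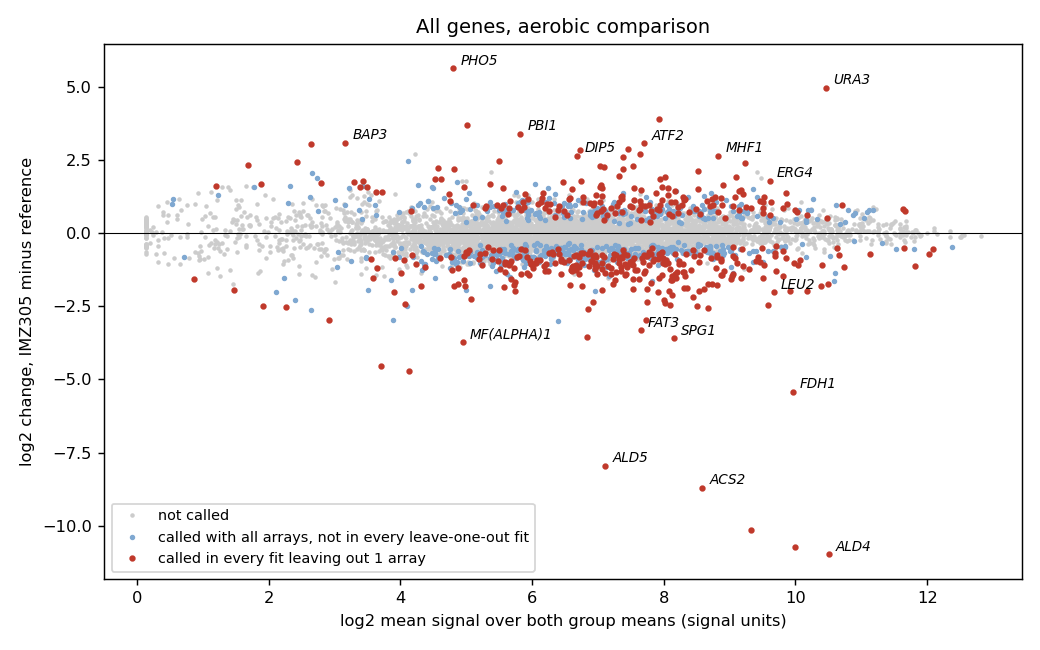
Log2 change of each of the 5656 genes (IMZ305 minus reference, vertical axis) against the log2 of its mean signal over both groups (horizontal axis). Grey points were not called, blue points were called with all arrays, and red points were also called in every fit leaving out 1 array; named genes are labelled, and the deleted genes and FDH1 lie lowest.

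Pyruvate genes, which act before the replaced route, changed in few members. Of 18 measured genes of pyruvate decarboxylase, pyruvate dehydrogenase and pyruvate import, 1 was higher and 1 lower, both stably (11.1% called, beside 18.2% of all genes), with a median log2 change of 0.04. MPC3, the subunit of the mitochondrial pyruvate carrier used in respiring cells, fell from 2565.8, 1854.2 and 2253.6 to 661.3, 591.4 and 746.1, a log2 change of -1.73 ± 0.22 SE (3.33-fold, adjusted p = 0.00122). PKP1, the kinase that switches pyruvate dehydrogenase off, rose from 107.4, 93.4 and 93.3 to 169.9, 139.8 and 146.3 (1.55-fold, adjusted p = 0.00656). The carrier's other subunits, MPC1 and MPC2, overlapped between the strains (log2 changes of -0.09 and 0.53). PDC1, the main pyruvate decarboxylase gene, read 1619.5, 1083.1 and 1830.1 in the reference and 1876.1, 1852.4 and 1917.8 in IMZ305 (adjusted p = 0.3), and PDC5 and PDC6 had log2 changes of -0.01 and -0.52. The pyruvate dehydrogenase subunit genes PDA1, PDB1 and PDX1 overlapped between the strains (log2 changes of 0.13, 0.06 and -0.07). LAT1 and LPD1, which encode its other catalytic parts, read higher on all IMZ305 arrays without being called (log2 changes of 0.57 and 0.79). The remaining members, the regulators PKP2, PTC5, PTC6 and PDC2 and the pyruvate carboxylase genes PYC1 and PYC2, had log2 changes from -0.05 to 0.41.

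Of 23 genes of acetaldehyde reduction and other aldehyde enzymes, 3 were called higher and 4 lower (30.4% called), of which 2 and 2 stably, with a median of -0.19. ADH2, the glucose-repressed alcohol dehydrogenase that turns ethanol into acetaldehyde, fell from 5180.7, 4584.6 and 5719.2 to 3448.4, 3268.2 and 2803.5 (1.63-fold, adjusted p = 0.00979). Its lowest reference array stood above its highest IMZ305 array. BDH2, a gene of the same dehydrogenase family, fell from 106.6, 60.6 and 82.1 to 33.3, 30.8 and 28.2 (2.64-fold, adjusted p = 0.00677). In the other direction, ARI1, an NADPH-dependent aldehyde reductase gene, rose from 14.4, 16.9 and 13.8 to 36.9, 33.3 and 44.9 (2.54-fold, adjusted p = 0.00182). MSC7, which encodes a protein related to aldehyde dehydrogenases, rose from 207.2, 210.2 and 171.3 to 435.3, 386.7 and 489.7 (2.23-fold, adjusted p = 0.000548). ADH6, a broad NADPH-dependent alcohol dehydrogenase gene, read 111.5, 288.9 and 211.9 in the reference and 510.2, 470.2 and 390.7 in IMZ305 (2.40-fold, adjusted p = 0.0203; not called without IMZ305 array 1 or IMZ305 array 2). The aldo-keto reductase genes GCY1 and GRE3 were called lower with all arrays (1.74-fold and 1.36-fold) and in 4 and 2 of the 12 fits leaving out 1 array. Of the members not called, ADH3, ADH4, ADH5, ADH7, SFA1, BDH1, GRE2, HFD1, YPR1, UGA2, PUT2, AAD4, AAD6, AAD10 and AAD14 had log2 changes between -0.42 and 0.52, the latter on signals near background.

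Of 14 genes that handle acetyl-CoA and acetate beyond the deleted ones, 5 were called lower, 3 of them stably, and limma called 0 higher, with 1 higher at an unadjusted p under 0.05; their median log2 change was -0.21. HFA1, the mitochondrial acetyl-CoA carboxylase gene, fell from 62.7, 57 and 71.3 to 31.1, 26.7 and 23.7 (2.35-fold, adjusted p = 0.00523). JEN1, the importer of lactate and pyruvate, fell from 2694.4, 1808.9 and 2520.5 to 1035.9, 1185.8 and 943.7 (2.20-fold, adjusted p = 0.00652). CAT2, the carnitine acetyltransferase of mitochondria and peroxisomes, fell from 853.7, 649 and 605.1 to 377.5, 405.8 and 366.5 (1.81-fold, adjusted p = 0.0122). No IMZ305 array of these 3 genes reached the reference range. ACC1, the cytosolic acetyl-CoA carboxylase that starts fatty acid synthesis, read 3811.7, 2971.1 and 3694.5 in the reference and 2527, 2484.6 and 2242.3 in IMZ305 (1.44-fold, adjusted p = 0.0256), called in 7 of the 12 fits leaving out 1 array. ATO3, of the acetate and ammonium transporter family, read 2024.1, 1419.5 and 2157.6 in the reference and 1152.8, 1083.9 and 999.8 in IMZ305 (1.71-fold, adjusted p = 0.0149; not called without IMZ305 array 2). YAT1, a carnitine acetyltransferase of the mitochondrial surface, read 152, 140.8 and 142.4 in the reference and 359.2, 292.9 and 191.8 in IMZ305, without overlap but not called (adjusted p = 0.0757), while YAT2, the acetate transporter ADY2 and the coenzyme A transferase ACH1 had log2 changes of 0.47, -1.02 and 0.59 and were not called either. ACB1, BPL1, ATO2, AGP2 and CRC1 lay between -0.22 and 0.00.

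Genes of ergosterol synthesis, which consumes cytosolic acetyl-CoA, were higher in IMZ305, chiefly in the steps after squalene. Of 16 genes from squalene to ergosterol, 13 were called higher, 10 stably, and limma called 0 lower, with 0 of 16 lower at an unadjusted p under 0.05. The median log2 change was 0.87 beside -0.035 over all genes, and 15 of 16 had groups that did not overlap. ERG4, the reductase gene of the last step, rose from 304, 455.1 and 302.8 to 1169.4, 1145.6 and 1305.2, a log2 change of 1.79 ± 0.28 SE (3.47-fold, adjusted p = 0.00337). NCP1, the reductase that feeds electrons to the pathway's cytochrome P450 enzymes, rose from 321.4, 279.9 and 311 to 948.7, 841.5 and 755.6, a log2 change of 1.48 ± 0.12 SE (adjusted p = 0.000139). The 3 IMZ305 arrays of both genes stood more than 2 times above the highest reference array. ERG24, a sterol reductase gene that acts after the first demethylation, rose from 197.2, 132 and 232.8 to 426.9, 431.1 and 453.2 (2.40-fold, adjusted p = 0.00264). ERG27 and ERG26, which act with ERG25 in removing methyl groups from the sterol, rose 2.09-fold and 1.96-fold (adjusted p = 0.00349 and adjusted p = 0.0013).

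ERG5, the sterol desaturase of the cytochrome P450 type, rose from 329.6, 461.3 and 495.9 to 754.4, 816 and 783.9 (1.86-fold). CYB5, the cytochrome b5 gene, rose from 536.8, 506.1 and 505.1 to 866.5, 934.2 and 1037.6 (1.83-fold). ERG2, the sterol isomerase gene, rose from 2600, 1907.9 and 2414.3 to 3997, 3960.9 and 4173 (1.77-fold). ERG3, a sterol desaturase gene, rose from 2409.4, 2326.2 and 2427.7 to 4014.6, 3980.5 and 4198.7 (1.70-fold), and ERG28, a scaffold of the complex, from 702.2, 640.5 and 504.6 to 994, 950.8 and 883.5 (1.54-fold). These 5 calls were stable, with adjusted p-values from 0.002331 to 0.0109. ERG29 read 27.9, 41.1 and 25.8 in the reference and 97.7, 115.4 and 90 in IMZ305 (3.25-fold, adjusted p = 0.0124; not called without IMZ305 array 2). ERG1, the squalene epoxidase gene, and ERG7, the lanosterol synthase gene, were called higher (1.74-fold and 1.83-fold), in 9 and 6 of the 12 fits leaving out 1 array. ERG11, the P450 demethylase gene, read 2731.1, 2497.9 and 2347.5 in the reference and 3358.8, 3005.5 and 3261.2 in IMZ305 (adjusted p = 0.0685), ERG6, the sterol methyltransferase gene, 1421.9, 1189.6 and 1556.2 in the reference and 1871.2, 1876 and 2043.4 in IMZ305 (adjusted p = 0.0505), and neither was called although all IMZ305 arrays lay above the reference. ERG25 was the member whose groups overlapped (log2 change of 0.44, adjusted p = 0.141).

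In the early pathway, from acetyl-CoA to squalene, 5 of 14 genes were called higher, 3 stably, and 1, RER2 of dolichol synthesis, was lower (-0.54), called in 8 of the 12 fits leaving out 1 array. ERG13, the hydroxymethylglutaryl-CoA synthase gene, rose from 634.9, 521.3 and 518.7 to 880.5, 935.5 and 860.7 (1.60-fold, adjusted p = 0.00242). MVD1, the mevalonate diphosphate decarboxylase gene, rose from 1003.8, 921.5 and 803.5 to 1395.2, 1407 and 1420.7 (1.55-fold, adjusted p = 0.0038), and ERG9, the squalene synthase gene, from 411.2, 518.9 and 434.2 to 837.9, 811 and 841.4 (1.83-fold, adjusted p = 0.00397). Each was higher on all 3 IMZ305 arrays than on any reference array. ERG10, the acetoacetyl-CoA thiolase that joins a first pair of acetyl-CoA units, read 557, 1203.9 and 606.8 in the reference and 1738.9, 1809.2 and 1506.1 in IMZ305 (2.27-fold, adjusted p = 0.0169), and ERG8, the phosphomevalonate kinase gene, 305.9, 439.2 and 421 in the reference and 707.2, 725 and 788.9 in IMZ305 (1.93-fold, adjusted p = 0.0347). These calls held in 8 and 5 of the 12 fits leaving out 1 array. The genes of HMG-CoA reductase, the regulated step, were not called: HMG1 read 2578.3, 1999.8 and 2197.7 in the reference and 2658.1, 2775.8 and 2378.2 in IMZ305 and HMG2 209.5, 260.1 and 238.4 in the reference and 183.9, 189.6 and 207.4 in IMZ305. ERG12, IDI1, ERG20, COQ1, BTS1 and SRT1 had log2 changes of 0.80, -0.19, -0.01, -0.02, 0.39 and 0.05.

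**Figure D3:**
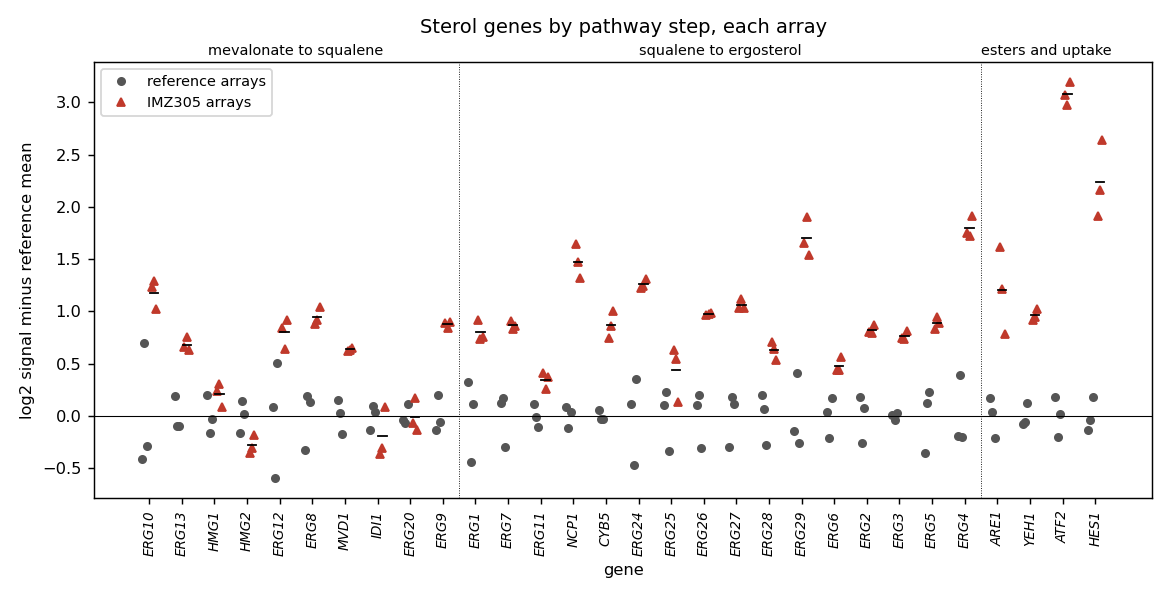
Log2 signal of each array minus the mean of the 3 reference arrays for 30 sterol genes in pathway order (reference arrays as circles, IMZ305 arrays as triangles, IMZ305 means as bars). Triangles lie above zero throughout the squalene-to-ergosterol block, with ERG4 at 1.79, and around zero for HMG2, IDI1 and ERG20 in the earlier block.

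Of 19 genes of sterol regulation, esters and uptake, 7 were called higher and 1 lower, of which 4 and 1 stably. The list's median log2 change was 0.35, under the 0.87 from squalene to ergosterol, while ATF2 and HES1 changed more than any gene of that pathway. ATF2, an alcohol acetyltransferase gene whose product also acetylates sterols, rose from 49.7, 38.1 and 44.4 to 368.6, 344.9 and 401.6 (8.47-fold, adjusted p = 1.78e-06). HES1, of the oxysterol-binding family, read 7.4, 7.9 and 9.2 in the reference and 30.7, 36.3 and 50.6 in IMZ305 (at least 4.69-fold, adjusted p = 8.94e-05). ARE1, a sterol acyltransferase that forms storage esters, rose from 47.4, 43.3 and 36.5 to 129.2, 97.8 and 72.5 (2.30-fold), and YEH1, a steryl ester hydrolase, rose from 157.9, 160 and 181.2 to 314.1, 320.6 and 338.4 (1.95-fold). The strains were parted on every array for these 4 genes. UPC2, the activator of sterol genes, read 53.8, 48.3 and 50.9 in the reference and 84, 79.9 and 84.3 in IMZ305 (adjusted p = 0.047), called in 3 of the 12 fits leaving out 1 array. OSH7, another oxysterol-binding protein gene, fell from 209.8, 217.9 and 173.2 to 136.2, 136.1 and 129.3 (1.49-fold).

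In the list of fatty acid synthesis, desaturation and elongation, the stable falls were 1 elongase gene, 1 regulator and 2 genes that handle imported fatty acids. Of 18 members, 7 were called lower, 4 stably, and 1, the elongase gene ELO2, was called higher; the median log2 change was -0.19. FAT3, a gene needed to import fatty acids, fell from 432.6, 303.7 and 360.1 to 36.5, 41.3 and 31.3 (10.0-fold, adjusted p = 0.0003). MGA2, the membrane-bound activator of the desaturase gene OLE1, fell from 58, 37.8 and 38.7 to 14.1, 18.8 and 9 (3.29-fold, adjusted p = 0.00689). FAA4, an acyl-CoA synthetase that activates imported fatty acids, fell from 348.4, 318.5 and 403.9 to 169.7, 178.3 and 181.2 (2.01-fold, adjusted p = 0.000346). ELO1, the elongase of medium-chain acids, fell from 680.2, 627.4 and 537.7 to 323.8, 342.9 and 283.8 (1.94-fold). The ranges of the strains were separate for all 4. FAS1, the beta subunit of fatty acid synthase, and IFA38, a reductase of elongation, were called lower (1.28-fold and 1.53-fold) in 10 and 10 of the 12 fits leaving out 1 array, and ELO2 higher (1.68-fold) in 10. In the separate mitochondrial pathway that makes the lipoate precursor, 3 of 12 genes were lower and 1 higher, of which 2 and 1 stably. ETR1, its enoyl reductase gene, fell from 79.3, 106.6 and 76.6 to 28.6, 38.6 and 35.1 (2.56-fold), and HFA1 fell as given above, whereas MCT1, its malonyl transferase gene, rose from 40.3, 47 and 49.7 to 96.8, 84.3 and 103.7 (2.08-fold).

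Peroxisomal beta-oxidation, which shortens fatty acids to acetyl-CoA, was lower in IMZ305. Of 17 members, 13 were called lower, 11 stably, and 1, PCS60, was higher; the median log2 change was -1.07 and the groups of all 17 did not overlap. ECI1, an enoyl-CoA isomerase gene, fell from 575.5, 344.2 and 382.3 to 70.7, 79.9 and 96.3, a log2 change of -2.37 ± 0.24 SE (5.18-fold, adjusted p = 0.000384). CTA1, the peroxisomal catalase gene, fell from 1617.9, 1325.1 and 1698.4 to 406.9, 415 and 351.9 (3.94-fold, adjusted p = 0.000579). FOX2, the multifunctional enzyme of the middle steps, fell from 1247.7, 1091.6 and 1629.3 to 455.6, 530.5 and 456.7 (2.72-fold, adjusted p = 0.00146), and POT1, the thiolase that releases acetyl-CoA, fell from 983.1, 778 and 818.2 to 324.8, 289.5 and 283.3 (2.86-fold, adjusted p = 0.00259). For these 4 genes no IMZ305 array came near the lowest reference array. PXA1 and PXA2, which form the importer of long-chain acyl groups, fell 2.52-fold and 2.29-fold (adjusted p = 0.00013 and adjusted p = 0.00531). The accessory genes IDP3 (peroxisomal NADPH), MDH3 (peroxisomal malate dehydrogenase), FAA2 (acyl-CoA synthetase) and SPS19 (dienoyl reductase) fell 2.71-fold, 2.10-fold, 1.84-fold and 1.82-fold. POX1, the oxidase of the first step, read 437.1, 346.3 and 232.3 in the reference and 179.9, 162.4 and 150.2 in IMZ305 (2.00-fold, adjusted p = 0.0305), and TES1, a thioesterase gene, 824.7, 891.6 and 1198.8 in the reference and 580.8, 508.5 and 382.1 in IMZ305 (1.98-fold, adjusted p = 0.0407). These calls held in 7 and 2 of the 12 fits leaving out 1 array. PCS60, the oxalyl-CoA synthetase gene, rose from 177.3, 197.8 and 159.8 to 314.3, 323.5 and 290.1 (1.74-fold, adjusted p = 0.00515).

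Among 32 peroxins and activators of peroxisome genes, 3 (9.38%) were called lower, all stably, a share under the 11.0% of all genes called lower, and limma called 0 higher, with 0 higher and 8 lower at an unadjusted p under 0.05. ADR1, the activator of genes for fatty acid and ethanol use, fell from 158.9, 120.3 and 201 to 70, 83.5 and 65.5 (2.16-fold, adjusted p = 0.00346). PEX5, the import receptor, fell from 58.7, 63.9 and 53.6 to 27.1, 30.6 and 33.5 (1.93-fold) and PEX14, its docking partner, from 344.1, 203.7 and 254.4 to 89.7, 112.6 and 133.6 (2.36-fold). The other 29 members were not called, and the list's median was -0.23.

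Phospholipid and inositol synthesis had 2 of 30 genes higher and 3 lower (16.7% called, beside 18.2% of all genes), with 1 stable call. GPT2, the glycerol phosphate acyltransferase gene, fell from 843.5, 658.8 and 924.5 to 378.8, 398.2 and 329.1 (2.18-fold, adjusted p = 0.00707). INO1, the inositol phosphate synthase gene, read 826.8, 553.3 and 771.8 in the reference and 317.5, 348.5 and 293.8 in IMZ305 (2.21-fold, adjusted p = 0.0254), called in 7 of the 12 fits leaving out 1 array. Of 27 sphingolipid genes, 4 were higher and 2 lower, of which 2 and 0 stably. YSR3, a sphingoid base phosphate phosphatase gene, rose from 51.5, 38.2 and 37.1 to 316, 299.2 and 313 (7.40-fold, adjusted p = 2.88e-06). LCB1, a subunit of serine palmitoyltransferase, the first enzyme of the pathway, rose from 280, 243.6 and 340 to 638.3, 543.6 and 456.9 (1.90-fold, adjusted p = 0.00482). Both genes had separate ranges.

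**Figure D4:**
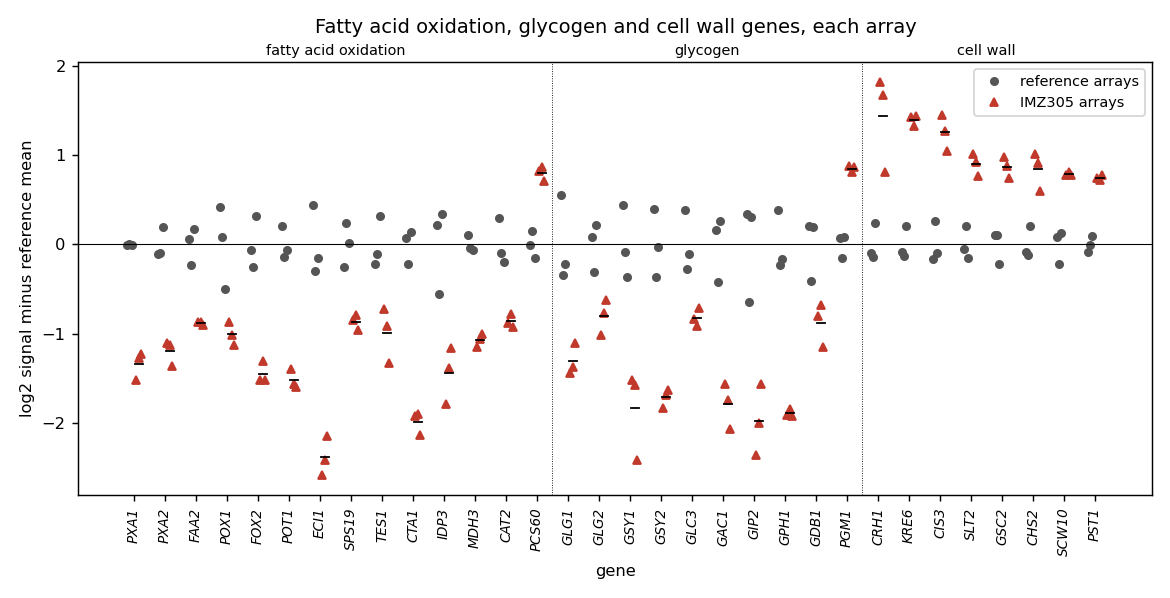
Log2 signal of each array minus the reference mean for 14 genes of fatty acid oxidation, 10 of glycogen metabolism and 8 of the cell wall, with symbols as in the sterol plot. All oxidation genes but PCS60 and all glycogen genes but PGM1 have their IMZ305 arrays below zero, and the cell wall genes have theirs above it. Only called members are shown, so these directions follow from that choice. The cell wall genes were taken from the 14 called higher of 44, and the 3 called lower are not shown.

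Glycogen genes were lower in IMZ305 as well. Of 15 members, 9 were called lower, 6 stably, and 1 higher, with a median log2 change of -0.87. GPH1, the phosphorylase that breaks glycogen down, fell from 375.4, 245.3 and 256 to 76.4, 80.3 and 75.7, a log2 change of -1.89 ± 0.15 SE (3.70-fold, adjusted p = 1.00e-04). GSY2 and GSY1, the synthases, fell from 444.1, 263.5 and 330.3 to 95.5, 105.7 and 109.5 (3.27-fold, adjusted p = 0.000323) and from 98.2, 68.3 and 56.4 to 25.4, 24.3 and 13.6 (3.56-fold, adjusted p = 0.0102). GLG1, the primer protein gene, fell from 148.8, 80.1 and 86.8 to 37.4, 39.1 and 47.3 (2.46-fold). Synthesis and breakdown genes thus both read lower, with no IMZ305 array in the reference range. GAC1 and GIP2, targeting subunits of the phosphatase that acts on glycogen synthase, fell 3.45-fold and 3.92-fold (adjusted p = 0.00104 and adjusted p = 0.00336). GLC3, GDB1 and GLG2, for branching, debranching and priming, were called lower (1.76-fold, 1.83-fold and 1.74-fold) in 10, 10 and 8 of the 12 fits leaving out 1 array. PGM1, a phosphoglucomutase gene, rose from 149.1, 127.8 and 150.9 to 261.1, 248.4 and 258.8 (1.80-fold, adjusted p = 0.00205). Of 9 trehalose genes, the trehalases NTH2 and ATH1 fell from 141.4, 178 and 217.2 to 80.5, 92.9 and 87.8 (2.03-fold) and from 346.8, 303.7 and 379.9 to 186.2, 176.8 and 182 (1.88-fold), and the synthase genes were not called.

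Of 27 genes of general stress and stationary phase, 14 were called lower, 10 stably including the deleted ALD3, and 1, SNO1, was called higher; the median was -0.46. SPG4, another stationary-phase gene, fell from 1682.4, 2454.4 and 2113.6 to 544.9, 560.3 and 665.2 (3.50-fold, adjusted p = 0.000159). PAI3, the proteinase A inhibitor gene, fell from 222.3, 232.1 and 173.8 to 37.6, 51.9 and 80.5 (3.85-fold). RTN2, a reticulon gene, fell from 164.3, 124.2 and 165.1 to 60.7, 55.2 and 57.3 (2.60-fold), GRE1 2.28-fold and MSC1 2.01-fold. DDR2, a DNA damage and stress response gene, fell from 5124.6, 4558.1 and 5800.9 to 3760.8, 3454.5 and 3459.5 (1.45-fold). Separate ranges held for all of these. Of 27 heat shock and chaperone genes, 7 were called lower and 1 higher, but 1 of these calls was stable, that of HSP26, a small heat shock protein gene, which fell from 1981.8, 1804.6 and 2356.5 to 1211.3, 1171.2 and 1237.7 (1.69-fold, adjusted p = 0.00689).

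Peroxide and superoxide defence moved both ways, with 3 of 28 genes higher and 6 lower, of which 1 and 4 stably. Of the list 32.1% was called, beside 18.2% of all genes. TSA2, a peroxiredoxin gene usually expressed at a low level, rose from 52.4, 38.3 and 52.4 to 210.2, 152.4 and 136.3 (3.46-fold, adjusted p = 0.00109). GPX1, a glutathione peroxidase gene, fell from 372.3, 456.1 and 416.5 to 130.9, 136.9 and 137.8 (3.06-fold, adjusted p = 0.000949). PRX1, the mitochondrial peroxiredoxin gene, fell from 399.9, 391.5 and 422.6 to 197.8, 202.9 and 191.9 (2.05-fold), and GRX2, a glutaredoxin gene, from 1059.2, 987.6 and 995.2 to 658, 607.7 and 664.4 (1.58-fold). CTA1, given above, is also a member.

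In glycolysis the log2 changes ran from -0.88 to 0.58. Of 24 genes, 5 were called lower, 3 stably (20.8% called, beside 11.0% of all genes called lower and 18.2% called either way). Here limma called 0 higher, with 1 higher at an unadjusted p under 0.05. HXK1, a hexokinase gene of slow-growing cells, fell from 2864.3, 2784.9 and 2753.9 to 1702.3, 1687.3 and 1711.1 (1.65-fold, adjusted p = 0.000716). PFK1, a subunit of phosphofructokinase, fell from 1216.5, 990.5 and 1071.1 to 749.2, 674.7 and 711.1 (1.53-fold, adjusted p = 0.00349), and PFK26, which makes its activator, fell from 329.5, 303.2 and 302.2 to 149.6, 169.4 and 189.8 (1.84-fold). These 3 had ranges far apart relative to their spread. In hexose transport and glucose signalling, 5 of 22 were lower, 3 stably: SNF1, the kinase of glucose derepression (from 126.8, 136.3 and 119.6 to 77.1, 69 and 80.7 (1.69-fold)), MTH1, a regulator of hexose transporters (from 234.8, 202.6 and 183 to 111.1, 103.7 and 119 (1.85-fold)), and HXT6, a high-affinity transporter (1.43-fold) nearly identical to HXT7. MAL11 and MAL31, maltose transporters, fell 4.54-fold and 2.22-fold.

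Of 15 genes of the glyoxylate cycle and gluconeogenesis, 6 were lower and 1 higher, of which 2 and 1 stably. CIT2, which encodes the citrate synthase of peroxisomes, rose from 786.5, 334.7 and 494.2 to 1284.6, 1309.5 and 1350.9 (2.60-fold, adjusted p = 0.0104), and reference array 1 lay nearest to IMZ305. ICL2, the mitochondrial methylisocitrate lyase gene, fell from 370.5, 632.4 and 355.5 to 169.8, 195.4 and 162.9 (2.49-fold, adjusted p = 0.00577). DLD3, a lactate dehydrogenase gene, rose from 81, 120.3 and 120.5 to 297.6, 309.1 and 282.6 (2.81-fold, adjusted p = 0.000949). Its IMZ305 arrays all lay above 2 times the highest reference array. Both DLD3 and CIT2 belong to 13 genes of the retrograde response, which signals mitochondrial dysfunction to the nucleus. Of these, 3 were called higher and 2, ICL2 and CIT3, lower, with a median of -0.03. Of 18 genes of the tricarboxylic acid cycle, 2 were higher and 3 lower, and 0 of these limma calls were stable. Of 34 respiratory chain genes, 6 were lower, 2 stably (17.6% called, beside 11.0% of all genes called lower and 18.2% called either way). The stable calls were NDI1 (internal NADH dehydrogenase, from 983.9, 832.2 and 818 to 513.9, 535.3 and 468.4 (1.73-fold)) and RCF1 (a supercomplex factor, from 584.4, 451.8 and 433.3 to 209.9, 244.3 and 297.1 (1.96-fold)). STF2, which modulates the ATP synthase, fell from 1348.3, 1107 and 1104.2 to 423.8, 450.7 and 577.1 (2.46-fold, adjusted p = 0.000959).

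Among 21 genes of the pentose phosphate pathway and NADPH supply, 3 were higher and 6 lower, of which 1 and 4 stably. TKL1, the main transketolase gene, rose from 803.3, 853 and 693.7 to 1325.7, 1320.5 and 1245.3 (1.66-fold, adjusted p = 0.00332). GND2 and NQM1, the minor forms of phosphogluconate dehydrogenase and transaldolase, fell from 443.7, 386.3 and 262.5 to 184.3, 132.6 and 94.7 (2.69-fold) and from 499.7, 407.6 and 496.8 to 171.2, 153.7 and 183.9 (2.75-fold). YEF1, an NADH kinase gene, fell from 541.1, 309 and 707.6 to 119.4, 146.1 and 139.6 (3.65-fold, adjusted p = 0.0101). TKL1 therefore went the opposite way from GND2, NQM1 and YEF1, each without overlap. These genes were picked from the called members, and the main forms beside GND2 and NQM1 are not given here. The list's median log2 change was 0.08.

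Several vitamin genes were lower. Of 16 thiamine genes, 7 were called lower, 4 stably, and limma called 0 higher, also at an unadjusted p under 0.05, with a median of -0.48. THI7, the thiamine importer gene, fell from 624.5, 657.7 and 782.7 to 254.4, 256.6 and 250.5 (2.70-fold, adjusted p = 3.87e-05). THI3, a regulator of thiamine genes related to pyruvate decarboxylase, fell from 159.1, 184.3 and 173.9 to 59.7, 77 and 90.3 (2.31-fold, adjusted p = 0.00112). PHO3, the phosphatase that frees thiamine from its phosphates, fell from 70.8, 109.2 and 64.6 to 28.2, 19.9 and 23.2 (3.37-fold, adjusted p = 0.00259). Of 7 biotin genes, BIO5, the importer of a biotin precursor, fell from 168.7, 105.6 and 169.3 to 39, 45.8 and 43.3 (3.39-fold, adjusted p = 0.000724). The other 6 were not called, so 14.3% of the list was called beside 18.2% of all genes.

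Amino acid permeases held 7 of 28 members higher and 4 lower, of which 4 and 2 stably. DIP5, the permease of glutamate and aspartate, rose from 20.6, 31.9 and 34.2 to 159, 187 and 185, a log2 change of 2.65 ± 0.24 SE (6.25-fold, adjusted p = 0.000245). AGP1, a broad permease gene, rose from 65, 88.4 and 55 to 195.6, 186.3 and 212.3 (2.90-fold, adjusted p = 0.00193). BAP3, a permease of branched-chain amino acids, was under background on all reference arrays and read 16, 13.2 and 19.2 in IMZ305 (at least 2.66-fold, adjusted p = 0.00109). LYP1, the lysine permease gene, rose from 158.7, 253 and 217.9 to 399.7, 405.8 and 354.3 (1.87-fold), while ALP1, an arginine permease gene, fell from 26.1, 21.2 and 21.1 to 14.1, 13.6 and 12.9 (1.68-fold). BIO5 is the other member that fell stably.

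In nitrogen use, 3 of 26 genes were higher and 7 lower, of which 0 and 4 stably (38.5% called, beside 18.2% of all genes). GDH3, a glutamate dehydrogenase gene of slow growth, fell from 260.4, 165.8 and 186.2 to 53.1, 33.2 and 33.8 (5.13-fold, adjusted p = 0.00029). MEP2, the high-affinity ammonium permease, fell from 477.7, 422.2 and 544.7 to 198.5, 211 and 191.4 (2.39-fold, adjusted p = 0.00259). GLT1, the glutamate synthase gene, fell from 1005.4, 879.7 and 935.1 to 498.5, 488.2 and 442 (1.97-fold, adjusted p = 0.00317), and DAL3 of allantoin breakdown fell from 250.5, 274.3 and 175.7 to 106.3, 96.1 and 78.4 (2.47-fold). No reference and IMZ305 arrays overlapped for these 4.

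Lists of amino acid synthesis and breakdown held few stable calls. ARG8, of ornithine synthesis, rose from 45.8, 90 and 86.1 to 178.4, 178.7 and 171.7 (2.49-fold), and CAR1, the arginase of arginine breakdown, rose from 150.7, 132.4 and 160.5 to 318.1, 275.1 and 281.2 (1.97-fold), the 2 stable of 4 higher among 16 arginine genes. ARG81, a regulator of that list, was called lower (log2 change of -0.55) in 4 of the 12 fits leaving out 1 array. Of 19 genes of histidine and aromatic amino acid synthesis, 2 were called higher, HIS1 and the marker HIS3. TYR1 of tyrosine synthesis was called lower (-0.52), so 15.8% of the list was called, beside 18.2% of all genes. HIS1, the first enzyme of histidine synthesis, rose from 440.1, 378.3 and 522.8 to 944.7, 924.5 and 1022.3 (2.17-fold, adjusted p = 0.00299). Of 18 genes of esters and the Ehrlich pathway, which turns amino acids into alcohols, 7 were higher and 1 lower, of which 3 and 1 stably. BAT1, the mitochondrial branched-chain aminotransferase, rose from 383.7, 434.8 and 415.8 to 770.1, 724.6 and 648.8 (1.74-fold). ARO10, a decarboxylase of that pathway, rose from 48.7, 67.2 and 80.6 to 183.4, 188.8 and 213 (3.04-fold, adjusted p = 0.000932). Of 16 genes of the serine, threonine and aspartate family, 3 (18.8%, beside 7.23% of all genes) were called higher, 1 stably. That one, CHA1, the deaminase gene of serine and threonine breakdown, was under background on 2 of the 3 reference arrays and read 16.7, 16.7 and 16.8 in IMZ305 (at least 2.45-fold, adjusted p = 0.00127). Of 12 lysine genes, whose pathway starts from acetyl-CoA and alpha-ketoglutarate, 1, LYS20, was called higher (8.33%, beside 7.23% of all genes). The call of LYS20 held in 2 of the 12 fits leaving out 1 array.

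Of 33 genes of sulfate assimilation and methionine, 6 were higher and 2 lower, of which 5 and 1 stably (24.2% called, beside 18.2% of all genes). CYS3, the cystathionine lyase gene, rose from 319.4, 330.3 and 330.6 to 1080, 792.7 and 682.2 (2.56-fold, adjusted p = 0.00331). MUP1, the methionine permease, rose from 121.5, 188 and 157.5 to 399.7, 335.6 and 404.7 (2.47-fold, adjusted p = 0.0125), and MET8, of siroheme synthesis, from 32.2, 33.2 and 30.9 to 75.9, 64.6 and 68 (2.16-fold). MET32, an activator of these genes, fell from 127.3, 146 and 133.7 to 51.8, 64.4 and 70.4 (2.19-fold, adjusted p = 0.000685). In purine synthesis 5 of 26 were higher and 4 lower, of which 2 and 2 stably (34.6% called, beside 18.2% of all genes). Among them were IMD2 (IMP dehydrogenase, 1.60-fold higher) and ADE16 (1.48-fold lower). URA8, a CTP synthase gene, fell from 250.3, 222.7 and 247.8 to 143.3, 135.8 and 119.2 (1.81-fold).

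Among 42 iron, copper and zinc genes, 3 were called higher and 4 lower, together 16.7% beside 18.2% of all genes, of which 2 and 4 stably. CTR3 and CTR1, the copper importers, fell from 1336.4, 1126.9 and 1418.4 to 216.5, 238.7 and 257.9 (5.43-fold, adjusted p = 0.000275) and from 318.6, 293.4 and 474.4 to 101.6, 110.7 and 160.1 (2.91-fold, adjusted p = 0.00242). FTR1, the iron permease, rose from 280.5, 240.4 and 264.7 to 618, 574.6 and 655.5 (2.35-fold, adjusted p = 0.00983), and TIS11, which lowers mRNAs of iron-using proteins, rose from 25.4, 22.6 and 23.7 to 70.5, 72.9 and 68.1 (2.95-fold, adjusted p = 0.00381). FET3, the multicopper oxidase that works with FTR1, read 172, 172.1 and 123.4 in the reference and 492.2, 415.6 and 372.5 in IMZ305 (adjusted p = 0.0462), called in 3 of the 12 fits leaving out 1 array. ZRT1, the zinc importer, fell from 254.5, 188.6 and 194.4 to 80.9, 91.5 and 70.5 (2.62-fold) and FRE4, a reductase gene, from 92.8, 67.9 and 81.8 to 25.7, 26.2 and 24.8 (3.14-fold). The other ZRT1 probe sets had log2 changes of -0.08, -0.85 and -1.85 and were not called (adjusted p = 0.894, 0.117 and 0.0913).

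Among 26 phosphate genes 3 were higher and 3 lower, of which 2 and 2 stably: PHO89, a phosphate importer, rose from 185.4, 178.5 and 191.4 to 407.4, 401.5 and 364.1 (2.11-fold, adjusted p = 0.000623) beside PHO5. In glycerol metabolism 6 of 17 were lower and 1 higher, of which 2 and 1 stably. GUT1, the glycerol kinase gene, fell from 470.6, 417.9 and 401.9 to 120.3, 118.5 and 92.8 (3.91-fold, adjusted p = 0.000112). YIG1, whose product interacts with glycerol phosphatase, fell from 458.8, 346.7 and 561.4 to 90.3, 96.2 and 127.5 (4.32-fold). AQY1, a water channel gene, rose from 41.4, 34.5 and 44.6 to 156.8, 143.1 and 112.9 (3.41-fold, adjusted p = 0.000949).

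Export genes were split. PDR12, the pump of weak organic acids, fell from 634.6, 761.3 and 675.4 to 240.3, 236.2 and 141.9 (3.44-fold, adjusted p = 0.00338). TPO2, a polyamine exporter, rose from 63.6, 83 and 53.3 to 290.3, 243 and 229.9 (3.86-fold, adjusted p = 0.00198), RTA1 rose from 8.7, 12.8 and 8.9 to 51.2, 38.4 and 48.9 (4.59-fold, adjusted p = 0.0094) and QDR2, a drug exporter, rose from 37, 46 and 21.1 to 89.5, 86.8 and 77.6 (2.56-fold). TPO4 and PDR10 fell 2.10-fold and 1.78-fold. The list had 5 of 31 members called each way, of which 3 higher and 4 lower stably.

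Cell wall genes were more often higher than lower in IMZ305. Of 44 genes of wall construction, 14 were called higher, 9 stably, and 3 lower, of which 0 stably; the median was 0.42. CRH1, a transglycosylase that links chitin to glucan, rose from 275.1, 267.2 and 347 to 1038.5, 938.2 and 515.1 (2.70-fold, adjusted p = 0.00865), with IMZ305 array 3 well under the other 2. KRE6, of beta-glucan synthesis, rose from 121.8, 118.7 and 149.8 to 347.6, 324 and 349.8, a log2 change of 1.40 ± 0.17 SE (adjusted p = 0.00115). CIS3, a wall mannoprotein gene, rose from 383.6, 514.2 and 401.4 to 1172.9, 1033.5 and 886.2 (2.38-fold, adjusted p = 0.000949). SLT2, the kinase of the cell wall integrity pathway, rose from 122.8, 147.5 and 114.7 to 258.1, 241.7 and 217.1 (1.87-fold, adjusted p = 0.00138), and GSC2, a glucan synthase gene induced through that pathway, rose from 686.6, 683.9 and 549.2 to 1251.8, 1164.7 and 1063.6 (1.82-fold). The other 6 GSC2 probe sets had log2 changes from 0.73 to 1.555 and were not called. The chitin synthase genes CHS1 and CHS2 rose 1.67-fold and 1.79-fold, and SCW10 and PST1 rose 1.73-fold and 1.67-fold.

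Of 14 mannoproteins of the DAN/TIR and CWP group, most of which are known from anaerobic or cold-grown cells, 7 were called higher and 1 lower, of which 5 and 1 stably, with a median of 0.84. TIR3 rose from 111.4, 76.6 and 126.7 to 513.6, 345 and 302.1 (3.67-fold, adjusted p = 0.00137) and TIR1 from 94.1, 85.2 and 101.8 to 334.2, 267.6 and 236.7 (2.96-fold, adjusted p = 0.000762). DAN1 was near or under background in the reference, with 6.7, 2 and 9.4, and read 32.7, 21.6 and 31.4 in IMZ305 (at least 4.06-fold, adjusted p = 0.0148; not called without IMZ305 array 1). PAU3, PAU4 and PAU17 rose 6.15-fold, 2.20-fold and 1.48-fold, and signals of this family of near-identical genes cannot be separated. TIP1 went the other way, from 4676.1, 4473.2 and 5555 to 2581.3, 2407 and 1846.4 (2.16-fold, adjusted p = 0.000959). Of 25 hypoxic and aerobic paralogs and regulators, 4 were higher and 2 lower, of which 3 (NCP1, ARE1 and YSR3) and 1 (MGA2) stably. AAC3, the hypoxic ATP carrier gene, read 2, 0.7 and 5.6 in the reference and 11.2, 7.7 and 10.8 in IMZ305 (adjusted p = 0.0291), called in 7 of the 12 fits leaving out 1 array.

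Several mating genes were lower. Of 36 members, 8 were called lower, 3 stably, and limma called 0 higher, with 2 higher at an unadjusted p under 0.05 and a median of -0.38. MFA2, an a-factor gene, fell from 2116.2, 1563.1 and 1860.2 to 927.1, 919.4 and 755.2 (2.12-fold, adjusted p = 0.0131). AGA2, the a-agglutinin subunit gene, fell from 255, 262.6 and 205.4 to 135.6, 129.9 and 111.4 (1.91-fold, adjusted p = 0.00228). MF(ALPHA)1, an alpha-factor gene read weakly in the reference, went from 61.6, 63.9 and 43.5 to 6.7, 1.4 and 8 (at least 9.99-fold, adjusted p = 0.0033). MFA1, the other a-factor gene, read 3015.9, 1581 and 2187 in the reference and 838.2, 750.2 and 988.4 in IMZ305, called in 8 of the 12 fits leaving out 1 array. Its dimmer probe set was not called (adjusted p = 0.102). In meiosis and sporulation 2 of 35 were higher and 5 lower (20.0% called, beside 18.2% of all genes), and 7 members lay under background on all 6 arrays. CDA1, a chitin deacetylase of the spore wall, fell at least 4.36-fold and CDA2 rose 1.91-fold.

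Several lists held a share of calls near or under the background. Among 41 genes of protein and histone acetylation and deacetylation, whose enzymes use acetyl-CoA or remove its acetyl group, 2 (4.88%) were called, both lower; EAF3, a subunit shared by acetylase and deacetylase complexes, fell from 798.7, 801.6 and 931.7 to 567.8, 590.3 and 625.2 (1.42-fold, adjusted p = 0.0108) stably. This share stands beside 18.2% of all genes. Among lists given above, the shares called either way were 22.2% for sphingolipid and 23.1% for phosphate genes. Trehalose, mating and hexose transport genes had 22.2%, 22.2% and 22.7% called, all lower, above the 11.0% of all genes called lower. Of 85 genes of ribosome biogenesis, 6 (7.06%) were called, 0 stably. Of 35 proteasome genes, 3 (8.57%) were called, and PRE3, a catalytic subunit, fell from 664.1, 614.4 and 569.3 to 458.5, 465.3 and 423.2 (1.37-fold) stably. Of 37 genes of vacuolar proteases and autophagy, 2 were higher and 4 lower: PBI1 rose as given above, while ATG34, a receptor of selective autophagy, fell from 470.5, 387.8 and 404.6 to 115.8, 139.4 and 164.6 (3.03-fold) and PBI2, the protease B inhibitor, fell from 1346, 1305.2 and 1375.5 to 580.9, 611.9 and 826.1 (2.02-fold). The core histone list had 1 of 5 called, HTB2, in 1 of the 12 fits leaving out 1 array. Heme and ubiquinone synthesis had 2 of 20 called, 0 stably, and NAD and pyridoxine synthesis 3 of 20, 0 stably. Cell cycle genes stood above the background, with 3 of 27 higher and 4 lower (25.9%). The stable call among them was PCL2, a cyclin gene, which rose from 35.5, 29.5 and 24.1 to 60, 50.5 and 64.4 (1.98-fold).

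**Figure D5:**
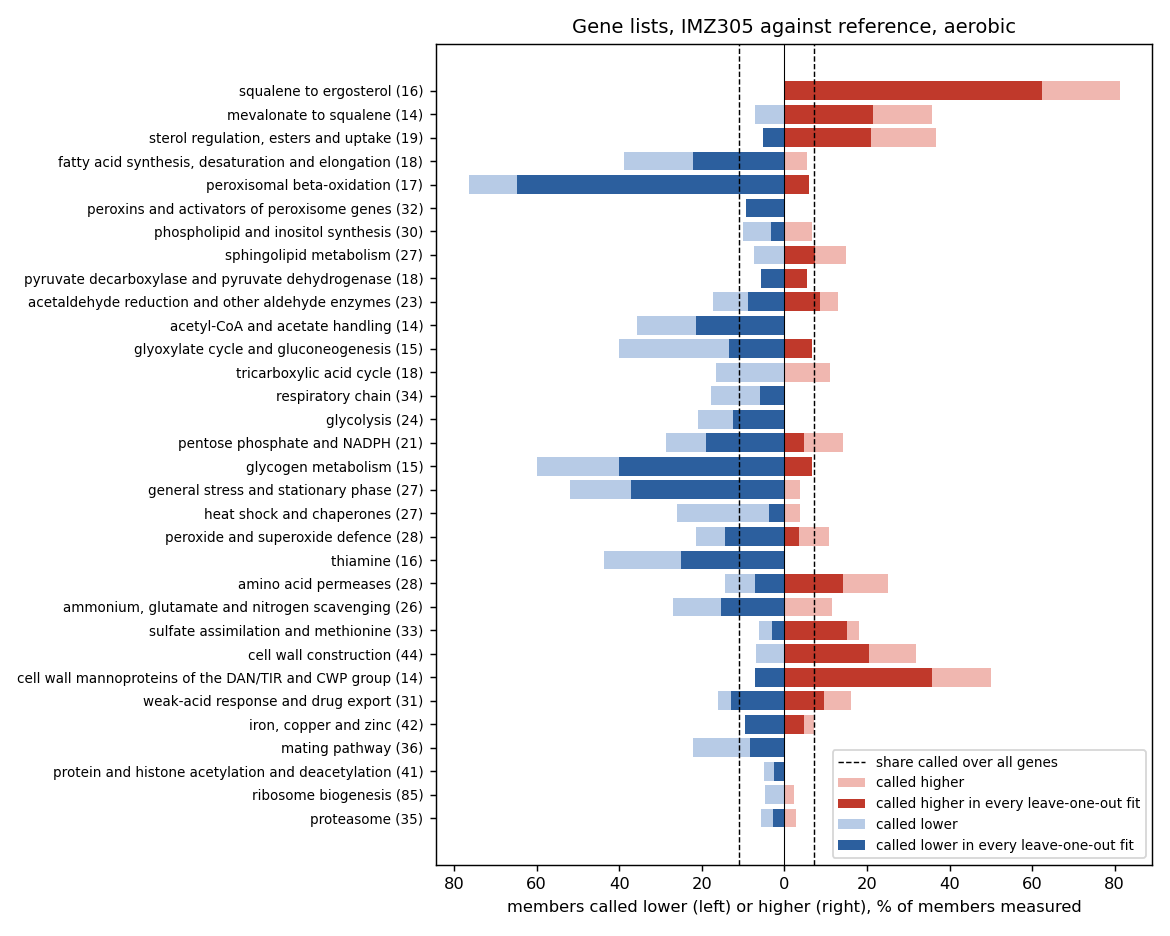
Share of measured members called lower (left, blue) or higher (right, red) in IMZ305 for 32 gene lists, with the stable calls in the darker shade and the number measured in brackets. Dashed lines mark the shares over all genes, 7.23% higher and 11.0% lower; squalene to ergosterol extends farthest to the right (81.2%) and peroxisomal beta-oxidation farthest to the left.

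The nearest measured genes on each side of the deleted loci were also read. Of 12 such neighbours, 2 were called higher, MFM1 beside ALD6 (from 20.2, 26.6 and 13.6 to 37.6, 48.9 and 45.5, adjusted p = 0.0204) and FLC2 beside ACS1 (from 109.1, 63.2 and 126.2 to 193.9, 213.3 and 199, adjusted p = 0.0194), and neither call was stable. The other 10, among them GDH1 beside ALD4 (log2 change of 0.49) and RNH203 beside ACS2 (-0.03), were not called, and the median over the 12 was 0.29. Medians of the log2 change by chromosome ran from -0.134 on X (328 genes) to 0.102 on III (138 genes).

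The series also holds IMZ383, which lacks ACS1 and ACS2 (replaced by LEU2 and HIS3 cassettes) but keeps the ALD genes, and carries pflB and pflA of Escherichia coli with URA3 on plasmid pUDE204. It was grown without oxygen on 20 g/L glucose with 10 mg/L ergosterol and 420 mg/L Tween 80, beside the reference strain under the same conditions. The difference between the 2 strain effects was tested as an interaction, in which strain, route and oxygen differ together and cannot be told apart. It was called for 823 probe sets (8.87%), 274 with a higher and 549 with a lower value for IMZ305, and for 651 genes (11.5%). Median centring of the arrays gave 337 and 322, moved the share of higher values from 33.3% to 51.1% and moved the median difference of all probe sets from -0.078 to 0.098.

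Of the 16 genes from squalene to ergosterol, 5 had a called difference, all higher in the aerobic pair, 2 in every fit leaving out 1 array: ERG4 (2.10 ± 0.39 SE on the log2 scale, adjusted p = 0.0113) and NCP1 (1.55 ± 0.18 SE on the log2 scale, adjusted p = 0.00112). The list's median log2 change was 0.87 in the aerobic and 0.15 in the anaerobic pair. Of 17 genes of beta-oxidation 8 had a called difference, all lower in the aerobic pair, with medians of -1.07 and -0.14. Of the 8 calls, 4 held in every fit leaving out 1 array. POT1 was not among the 8 genes: it was called lower in both pairs, with log2 changes of -1.52 and -1.44. PHO5 was called higher in both pairs, with log2 changes of 5.65 with air and 6.33 without oxygen (adjusted p = 5.7e-10 in the anaerobic pair). Its reference means, 0.333 with air and 0.267 without oxygen, were both under background. Its effects differed by -0.68 ± 0.13 SE on the log2 scale (adjusted p = 0.0119). Of 27 genes of general stress and stationary phase 17 had a called difference, 15 of them lower in the aerobic pair, with medians of -0.46 and 0.46. The 15 include ALD3, which is deleted in IMZ305 and kept in IMZ383, so its difference follows from the genotypes. GSY2 of glycogen synthesis changed by -1.71 in the aerobic and 0.63 in the anaerobic pair on the log2 scale (difference -2.33 ± 0.24 SE on the log2 scale, adjusted p = 0.000679), KRE6 of the cell wall by 1.40 in the aerobic and 0.01 in the anaerobic pair on the log2 scale (difference 1.39 ± 0.25 SE on the log2 scale, adjusted p = 0.00976), and DIP5 by 2.65 in the aerobic and 0.10 in the anaerobic pair on the log2 scale (difference 2.55 ± 0.35 SE on the log2 scale, adjusted p = 0.00268). Each of the last 3 moved in the aerobic pair and was not called in the anaerobic pair.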

How the data were processed

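Total RNA of 12 chemostat cultures was hybridised, 1 Affymetrix array each, 3 per group. Per the labels' protocols, 200 ng of RNA was amplified and biotin-labelled by in vitro transcription for 16 h at 40 °C, without the polyadenylated controls. The authors deposited linear signal intensity values, 1 per probe set. Software and settings are not given in the sources used here. Trimming 2% at each end, the array means were 150.12 to 150.15, so arrays had been scaled and a common shift of all transcripts would not be seen.

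Signals were floored at 1.1, the 10th percentile of all values, and log2-transformed. The fit used limma 3.58.1 (R 4.3.3): 1 mean per group over 12 arrays, empirical Bayes moderation, two-sided tests, Benjamini-Hochberg adjustment over 9275 probe sets and calls at an adjusted p under 0.05. P-values after "adjusted p" come from this fit, and a fold is 2 to the power of the log2 change. The code was tested on simulated data. The array number limits the precision, and no read depth exists. The background came from 19 control probe sets of bacterial and mouse origin. Where an array lay under its highest such control, that control replaced the signal in "at least" folds.

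The annotation gave 1 gene for 6504 probe sets, several for 328 and none for 2443. Where a gene had several, the brightest stands for it. The eutE transcript was not analysed here.

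Genes, gene lists and comparisons were chosen with earlier results of these data known. The rule named the deleted and marker genes. It also took the 12 largest stable rises and falls whose groups did not overlap and whose mean in a group was above 6.9. Up to 8 called members per list and all members of the 5 lists from pyruvate to ergosterol were added. The neighbours of deleted loci and the largest differences between strain effects completed it. Further members, such as PCS60, TES1 and POX1, were named after their values were seen. Alternatives covered scaling, floor, filters, model, thresholds and leaving out each array. Correcting the background differently could not be run on summarised signals.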

Additional observations from a re-analysis of the deposited data

Results flagged for a closer look

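The strain effect of IMZ305 in aerated cultures differed from that of IMZ383 without oxygen by limma's interaction test in these genes, each called in every fit leaving out 1 array and with a mean above 6.9 in an aerobic group. Means of 3 arrays are given for the reference and the engineered strain, and differences are log2 change with air minus log2 change without oxygen. YDR042C, an uncharacterised gene, had group means of 1.77 and 9.03 in the aerobic pair and 12.3 and 5.37 in the anaerobic pair, a difference of 3.64 ± 0.65 SE (adjusted p = 0.00988). For YSR3, the sphingoid base phosphate phosphatase gene, the means were 42.3 and 309 with air and 394 and 246 without oxygen, and the effects differed by 3.57 ± 0.20 SE (adjusted p = 1.38e-05). BAP3, the branched-chain amino acid permease gene, had group means of 1.77 and 16.1 in the aerobic pair and 103 and 83.4 in the anaerobic pair, a difference of 3.36 ± 0.54 SE (adjusted p = 0.00625). YDR042C and BAP3 lay under background in the aerobic reference. For AQR1, an exporter gene, the means were 4.17 and 6.93 with air and 86.3 and 15.0 without oxygen, and the effects differed by 3.19 ± 0.32 SE (adjusted p = 0.000621). ATF2, the alcohol acetyltransferase gene, had group means of 44.1 and 372 in the aerobic pair and 313 and 301 in the anaerobic pair, a difference of 3.15 ± 0.20 SE (adjusted p = 3.36e-05). AQR1 was near background in both aerobic groups, so its difference rests on the fall in the anaerobic pair. OPT2, an oligopeptide transporter gene, lay under background on all 6 aerobic arrays, with means of 1.00 and 0.533, and had 88.3 and 3.63 in the anaerobic pair. Its difference of 4.33 ± 0.48 SE (adjusted p = 0.00103) was above those of the 5 genes given. In 5 further genes the aerobic effect was the lower. For FDH1, the formate dehydrogenase gene, the means were 1946 and 44.9 with air and 2.17 and 589.8 without oxygen, and the effects differed by -13.70 ± 0.57 SE (adjusted p = 1.46e-06). CRF1, the corepressor gene, had group means of 211 and 18.0 in the aerobic pair and 4.40 and 10.1 in the anaerobic pair, a difference of -5.03 ± 0.64 SE (adjusted p = 0.00202). For NCA3, a gene linked to mitochondrial ATP synthase expression, the means were 436 and 148 with air and 51.0 and 269.9 without oxygen, and the effects differed by -3.87 ± 0.36 SE (adjusted p = 0.000445). FDH1 and NCA3 moved in opposite directions in the pairs, while CRF1 was called in the aerobic pair only, with the difference tested as given. In the anaerobic reference FDH1 lay under background and CRF1 near it, so the sizes of these differences are uncertain. SPG1, the stationary-phase gene, had group means of 526 and 43.0 in the aerobic pair and 6.87 and 7.87 in the anaerobic pair, a difference of -3.76 ± 0.34 SE (adjusted p = 0.000397). For FAT3, the fatty acid uptake gene, the means were 365 and 36.4 with air and 24.8 and 32.7 without oxygen, and the effects differed by -3.61 ± 0.45 SE (adjusted p = 0.00193). YDR034C-A, DAN1 and SUF16 had differences of 5.11, 3.32 and -4.18 whose calls held in 10, 9 and 8 of the 12 fits leaving out 1 array. Strain, route and oxygen differ together between the pairs and cannot be told apart.

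A signal also appeared outside the named genes. Probe set 3982_at, to which the annotation assigns no gene, read 0.2, 0.2 and 0.3 on the reference arrays and 3794.7, 3451.4 and 3764.6 on the IMZ305 arrays, a mean of 3670.23 in IMZ305 (at least 612-fold, adjusted p = 1.04e-13). It was 0.2 to 0.4 on all 6 anaerobic arrays, IMZ383 included. It was 1 of 7 such probe sets that lay under background on all 3 reference arrays and rose stably in IMZ305, and what it detects was not tested. These results were chosen after their values were seen.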

How the results depend on the processing

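With 565 probe sets higher and 770 lower in the fit to all arrays, the counts were 344 and 488 in a fit to the 6 aerobic arrays alone, 267 and 295 with a 2-fold change also required, and 131 and 190 at an adjusted p under 0.005. Leaving out 1 array gave 277 to 587 higher and 389 to 741 lower. The counts fell by more than 1.5 times without IMZ305 array 1 (305 and 396) or IMZ305 array 2 (277 and 389), and for lower calls without reference array 1 (498). Quantile normalization gave 616 and 731, no floor 468 and 622. The culture number as a replicate block left 4 higher and 8 lower. Same-numbered cultures deviated with correlations of 0.048, 0.003 and 0.03, and the labels do not say whether they were handled together. For the difference between the strain effects, 274 higher and 549 lower became 337 and 322 under median centring and 157 to 361 and 322 to 636 on leaving out 1 array. The lowest came without IMZ305 array 2 (157 and 322), and the counts were also low without IMZ305 array 1 (167 and 348) or anaerobic reference array 3 (174 and 343). Causes of these shifts were not tested. Of 274 genes named in the report, 0 changed direction past the threshold under any of these alternatives. Under median centring 15 called genes lost their call, under quantile normalization 2, and in the fit to the 6 aerobic arrays 36. With the replicate block 208 of the 274 lost it. Median centring turned the sign of list medians near 0, namely those of phospholipid, heme and ubiquinone, retrograde response, heat shock, phosphate, weak-acid and ribosome biogenesis genes. With 3 arrays a group and prior degrees of freedom of 1.276, small changes have low power, and signals under 7.5 have no measured order.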
